A study of Monascus purpureus with 9 samples.

Results

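In the filamentous fungus Monascus purpureus, 63 of the 9869 rows of the deposited expression table were silent in the wild type and on in strains lacking Set1 or Swd3. They were selected on their own measured values: under 0.1 FPKM in each of 3 wild-type (WT) libraries and at least 1 FPKM in each of 3 Set1 knockout and 3 Swd3 knockout libraries. FPKM (fragments per kilobase of transcript scaled to the number of mapped fragments) corrects a level for transcript length, so levels of different genes can be set side by side. The difference between WT and the knockouts is therefore fixed by the choice and is given below as a description. The choice also limits how far the knockouts can differ from each other, since a gene must reach 1 FPKM in all 6 knockout libraries. What it did not use is how the genes are named and numbered, and how genes with adjoining numbers behaved.

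The groups were WT, a Set1 knockout and a Swd3 knockout, each with 3 RNA-seq libraries of mycelium after 2 days in PDB medium. The labels name no other allele, no parent strain, no clone and no way in which either deletion was made, and separate cultures are not named. P-values then measure only library-to-library spread, possibly technical, and the lost subunit and the history of its strain cannot be told apart. Summed FPKM per library ran from 705678 to 729434, and read depth is unknown. In bulk mycelium, fewer cells that express a gene and less RNA per cell cannot be told apart. A value of exactly 0 can be a failed estimate, and is written here as listed at 0.

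Set1 is the catalytic subunit of COMPASS, which places methyl groups on a lysine of histone H3 near the start of transcribed genes, and Swd3 is a structural subunit of its core. The complex is best known as a companion of active transcription, yet in yeast it also takes part in silencing, and in Aspergillus nidulans loss of the COMPASS subunit CclA is known to switch on gene clusters that are silent in the wild type. In filamentous fungi, genes that make a single secondary metabolite often lie side by side on the chromosome and are kept off under many culture conditions.

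The table names its rows gene_ or NewGene_ with a number and pairs none of them with a gene name, a function or a position. Of the 63 genes, 58 are gene_ rows and 5 are NewGene_ rows, and 0 matched the reference gene list of assembly ASM2599979v1. No role is given for any of them. No sequence is printed and no pathway list was counted for the same reason. The transcripts of Set1 and Swd3, and markers of mycelium, were not analysed here.

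In WT the 63 genes were at or near the bottom of the scale. All 3 WT libraries listed 35 of them at 0, a further 13 were listed at 0 in 2 libraries and 10 in 1 library, and 5 had a value above 0 in every WT library. The highest WT value was 0.09996 FPKM, that of NewGene_220 in WT library 2. Summed over the 63 genes, the WT libraries held 0.993, 1.26 and 0.888 FPKM. The same sum was 268, 270 and 279 FPKM in Set1 knockout libraries 1 to 3 and 304, 279 and 272 FPKM in Swd3 knockout libraries 1 to 3.

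**Figure D1:**
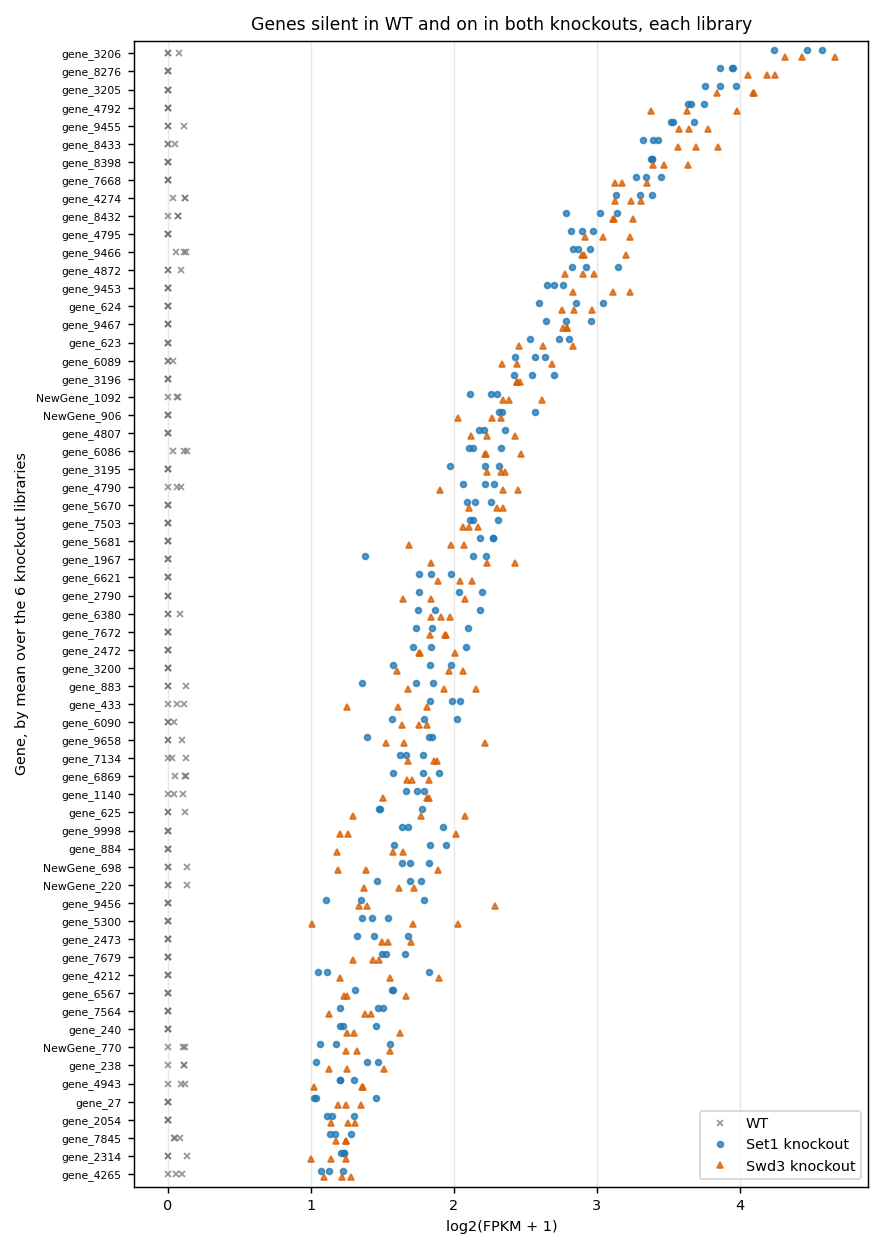
Level of each of the 63 genes on the log2(FPKM + 1) scale, with 1 symbol per library (crosses WT, circles Set1 knockout, triangles Swd3 knockout) and genes ordered by their mean over the 6 knockout libraries. The WT symbols sit at or near 0 by the choice of genes, and the circles and triangles of a gene lie close together compared with the range across genes.

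In the knockouts most of these genes reached a low level. The median of the 63 means was 2.85 FPKM without Set1, with a range of 1.21 to 20.6, and 2.75 FPKM without Swd3, with a range of 1.19 to 21.3. The median row of the whole table stood at 12.8 FPKM in the Set1 knockout and 13.2 FPKM in the Swd3 knockout, and 3 of the 63 genes lay above it in each. By mean over the 6 knockout libraries, 6 genes reached 10 FPKM or more, 11 stood at 5 to 10 FPKM, 31 at 2 to 5 FPKM and 15 under 2 FPKM. The 8 highest genes held 37.1% of the summed level of the 63.

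The highest was gene_3206, at 22.8, 17.9 and 21.2 FPKM in the Set1 knockout libraries and 24.4, 18.9 and 20.6 FPKM in the Swd3 knockout libraries. It was listed at 0 in 2 WT libraries and at 0.0568 FPKM in WT library 1. Its mean stood at percentile 62.1 of all rows in the Set1 knockout and 62.5 in the Swd3 knockout, above the median row of the table. The gene with the preceding number, gene_3205, had 0 in every WT library and stood at 12.5, 13.5 and 14.7 FPKM in the Set1 knockout and 16.1, 16.1 and 13.3 FPKM in the Swd3 knockout.

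Gene_8276, also listed at 0 in all WT libraries, had 13.6, 14.4 and 14.5 FPKM in the Set1 knockout and 17.96, 17.3 and 15.6 FPKM in the Swd3 knockout. Gene_4792, at 0 in WT as well, had 11.6, 12.4 and 11.4 FPKM in the Set1 knockout and 14.8, 11.4 and 9.38 FPKM in the Swd3 knockout. The Swd3 libraries lay above the Set1 libraries for gene_8276, whereas for gene_4792 they spread on either side of them. Gene_9455 followed with 10.95 ± 0.771 FPKM without Set1 and 11.7 ± 0.901 FPKM without Swd3 (SD, n = 3).

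Of the remaining genes among the 8 highest, gene_8433 stood at 9.41 ± 0.391 and 12.1 ± 1.27 FPKM in the Set1 and Swd3 knockouts. Gene_8398 stood at 9.44 ± 0.0299 and 10.3 ± 1.02 FPKM, and gene_7668 at 9.25 ± 0.612 and 8.33 ± 0.783 FPKM (SD, n = 3). Gene_8398 had the lowest coefficient of variation of the 63 in the Set1 knockout, at 9.42, 9.47 and 9.43 FPKM. Lower genes were less even. The median coefficient of variation was 7.04% without Set1 and 9.87% without Swd3 for the 17 genes that averaged 5 FPKM or more over the 6 knockout libraries, and 15.9% and 17.99% for the 15 genes under 2 FPKM. At the extreme, gene_9456 had 3.89 FPKM in Swd3 knockout library 1 and 1.63 and 1.53 FPKM in the others, and gene_4212 had 2.56 FPKM in Set1 knockout library 2 and 1.07 and 1.16 FPKM in the others. These last values single out genes after their values were seen.

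The limits of the choice cut through a continuum. Just inside the WT limit, NewGene_220 and NewGene_698 had WT maxima of 0.09996 and 0.0984 FPKM. Just outside it, NewGene_329 and gene_4305 reached 0.103 and 0.104 FPKM in a WT library and at least 1.46 and 3.34 FPKM in every knockout library. Just inside the knockout limit, gene_2314 and gene_5300 had knockout minima of 1.01 and 1.01 FPKM. Just outside it, gene_4808 and gene_9537 were listed at 0 in WT and had minima of 0.987 and 0.984 FPKM.

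Against WT, all 63 genes passed the test in each knockout, as the choice of genes makes them do. The test was limma across all 9153 rows with at least 1 FPKM in at least 3 libraries, on log2(FPKM + 1), with a Benjamini-Hochberg adjusted p under 0.05. Every one of the 63 passed that filter through its knockout libraries. Over all rows tested, 37.8% rose in the Set1 knockout and 38.2% rose in the Swd3 knockout. The median log2 difference of the 63 genes was 1.89 without Set1 (range 1.09 to 4.40) and 1.88 without Swd3 (range 1.09 to 4.44), against -0.06 and -0.05 over all rows tested. The scale adds 1 FPKM to each level and so understates changes of genes this low. Both comparisons use the same WT libraries. No ratio to WT is given, because the WT level is listed at 0 for most of these genes and no read counts are known.

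The direct comparison of the knockouts asked whether these genes came on to different levels without Set1 and without Swd3. The answer is partly set by the choice, which drops genes silent in WT that fell under 1 FPKM in a library of either knockout. Among those dropped, NewGene_1137 averaged 1.91 FPKM without Set1 and 0.874 FPKM without Swd3, gene_4407 averaged 1.38 and 0.716 FPKM, and gene_5668 averaged 0.811 and 1.55 FPKM. None of the 63 differed at an adjusted p under 0.05 (limma), against 12.8% of all rows tested, and 5 had an unadjusted p under 0.05 (7.94%, against 25.4% of all rows tested). The median Swd3 minus Set1 difference was 0.02 on the log2(FPKM + 1) scale (range -0.39 to 0.35), and 0.02 over all rows tested. The median absolute difference was 0.10 for the 63 genes and 0.11 for all rows tested. These genes are of low level, where the added 1 FPKM compresses differences, and a low called share is not shown to be particular to them. The 95% interval of the difference lay within -1 to 1 for all 63 genes and within -0.5 to 0.5 for 49 of them. Smaller differences cannot be told from 0 at this spread. That spread is pooled over all 9 libraries, and the choice holds the WT libraries under 0.1 FPKM. WT libraries thus add almost no spread for these genes, so intervals and p-values do not reflect knockout spread alone. In a limma fit of the Set1 and Swd3 libraries alone, 5 of the 63 had an unadjusted p under 0.05. After adjustment 1 passed, and intervals from that fit are not given.

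The 5 genes with an unadjusted p under 0.05 are named here after their values were seen. Gene_8433 had 8.99, 9.76 and 9.49 FPKM in the Set1 knockout and 13.4, 10.8 and 12.0 FPKM in the Swd3 knockout, a log2 difference of 0.32 (SE 0.10, limma adjusted p = 0.0629). Its 2 groups did not overlap. Gene_9453 had 5.51, 5.79 and 5.28 FPKM against 8.39, 6.12 and 7.64 FPKM (log2 difference 0.35, SE 0.12, limma adjusted p = 0.080), again without overlap. Gene_8276, given above, was higher in all 3 Swd3 libraries with a difference of 0.24 (SE 0.09, limma adjusted p = 0.118).

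Gene_433 and gene_5681 lay the other way. Gene_433 had 3.11, 2.97 and 2.56 FPKM in the Set1 knockout and 2.51, 2.05 and 1.38 FPKM in the Swd3 knockout (log2 difference -0.39, SE 0.15, limma adjusted p = 0.120). Gene_5681 had 3.84, 3.54 and 3.84 FPKM in the Set1 knockout and 2.94, 2.22 and 3.21 FPKM in the Swd3 knockout (log2 difference -0.33, SE 0.13, limma adjusted p = 0.125). In all, the Set1 and Swd3 libraries did not overlap for 8 of the 63 genes, 5 higher and 3 lower in Swd3, against 28.3% of all rows tested. The ratio of the Swd3 to the Set1 mean ran from 0.689 to 1.37 with a median of 1.03.

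Leaving out a library moved these calls. Without Swd3 knockout library 1, gene_433 passed (limma adjusted p = 0.0465), as did gene_9998 (adjusted p = 0.0394, log2 difference -0.52), which had 3.04 FPKM in that library and 1.39 and 1.303 FPKM in the other Swd3 libraries. Without Swd3 knockout library 2, gene_9453 passed (adjusted p = 0.0380). Swd3 knockout library 1 held the highest value of 21 of the 63 genes, the other 5 knockout libraries those of 6 to 10 genes each. The same count was not made over all rows. Gene_8433 passed under 4 other settings, with adjusted p of 0.0422 to 0.0493 (scaling to a common total, scaling by the median of ratios, a fit of Set1 and Swd3 libraries alone, and no filter on low values). Over all rows tested, 11.1% to 14.4% were called under those 4 settings. Without Swd3 knockout library 1 the share was 12.9%, and without Swd3 knockout library 2 it was 8.01%.

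**Figure D2:**
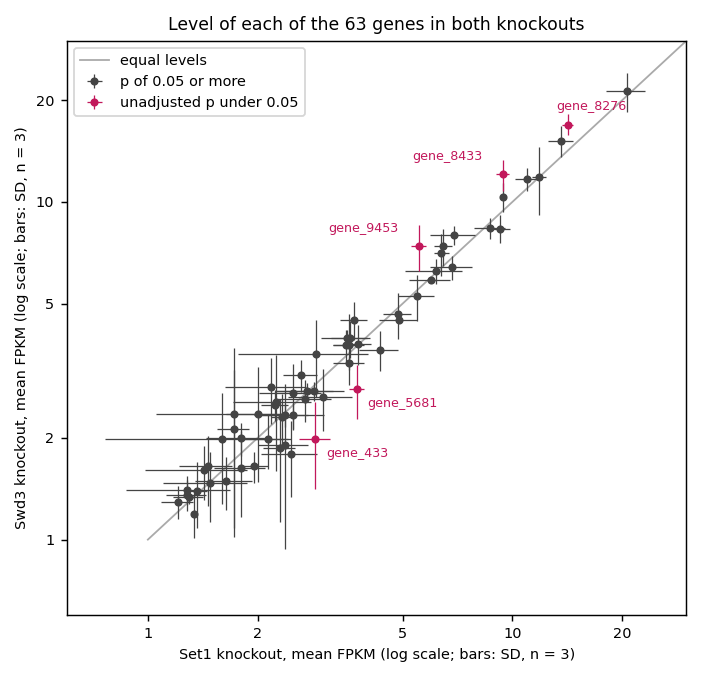
Mean FPKM of each of the 63 genes in the Set1 knockout (x axis) and the Swd3 knockout (y axis), both on log scales, with SD bars (n = 3 libraries) and a line of equal levels. The 5 named genes had an unadjusted p under 0.05, and the ratio of the means lies between 0.689 and 1.37 for all genes.

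The 63 genes were a minority of the rows silent in WT. In all, 351 rows were under 0.1 FPKM in every WT library, and 17.9% of them met the knockout limit as well. At the other end, 122 of the 351 (34.8%) had a mean under 0.1 FPKM over the knockout libraries, among them 51 listed at 0 in all 9 libraries. A further 107 stood at 0.1 to 0.5 FPKM and 35 at 0.5 to 1 FPKM. Of the rest, 70 stood at 1 to 5 FPKM and 17 at 5 FPKM or more.

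Few rows came on in a single knockout. Of the 351 rows, 71 had at least 1 FPKM in every Set1 knockout library and 68 in every Swd3 knockout library, and the 63 are the rows in both lists. The 8 rows that met the limit in the Set1 libraries alone had means of 0.716 FPKM or more in the Swd3 knockout, and 6 of them had a mean of at least 1 FPKM there. The 5 rows that met it in the Swd3 libraries alone had means of 0.811 FPKM or more in the Set1 knockout, and 3 of them reached a mean of 1 FPKM there. In the reverse direction, 2 rows were under 0.1 FPKM in every Set1 knockout library and at least 1 FPKM in every WT library, and 0 rows in the Swd3 knockout.

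NewGene_ rows were common among the silent rows, whereas their share of the 63 genes was close to their share of the whole table. They made up 42.5% of the 351 rows silent in WT, 9.64% of the whole table and 7.94% of the 63 genes. Seen from the other side, 28.7% of the 202 silent gene_ rows met the rule and 3.36% of the 149 silent NewGene_ rows. The shares that stayed under 0.1 FPKM in the knockouts were closer, 36.1% of gene_ and 32.9% of NewGene_ rows. The median knockout mean was 0.437 FPKM for the silent gene_ rows and 0.166 FPKM for the silent NewGene_ rows. The 5 that met the rule were NewGene_1092, NewGene_906, NewGene_698, NewGene_220 and NewGene_770. Their means lay between 1.43 and 4.32 FPKM in the Set1 knockout. The table does not say how NewGene_ rows were defined, and no lengths are given.

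**Figure D3:**
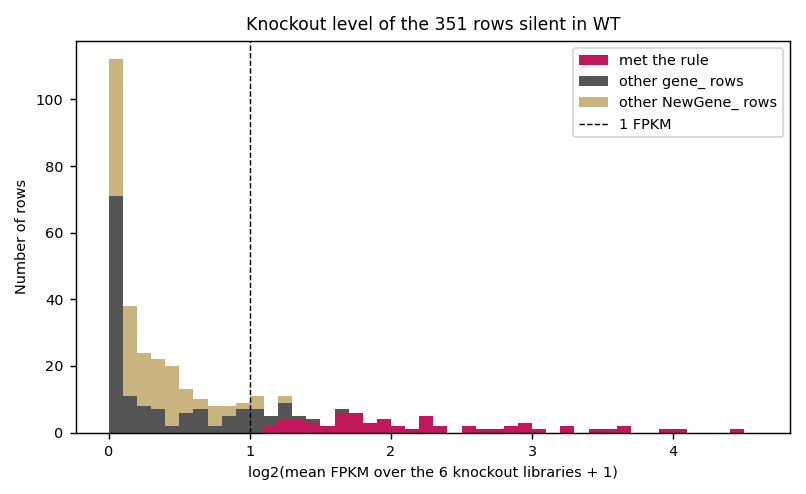
Number of rows (y axis) by their mean over the 6 knockout libraries, as log2(FPKM + 1) (x axis), for the 351 rows under 0.1 FPKM in every WT library, with the 63 genes that met the rule, other gene_ rows and other NewGene_ rows stacked. The dashed line marks 1 FPKM. To its left, 122 rows lie under 0.1 FPKM, 107 at 0.1 to 0.5 FPKM and 35 at 0.5 to 1 FPKM.

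Many of the 58 gene_ rows have adjoining numbers. At a distance of at most 2 in number, 24 of the 58 fall into 11 runs, and at a distance of 1, 19 fall into 9 runs. The table does not say whether numbers follow the order of genes on the genome. The runs are gene_238 and gene_240, gene_623 to gene_625, gene_883 and gene_884, gene_2472 and gene_2473, gene_3195 and gene_3196, gene_3205 and gene_3206, gene_4790 and gene_4792, gene_6089 and gene_6090, gene_8432 and gene_8433, gene_9453 with gene_9455 and gene_9456, and gene_9466 with gene_9467. Rows silent in WT that stayed at 0 in the knockouts also have adjoining numbers, such as gene_2712 to gene_2717 and gene_2731 to gene_2735. Runs were not counted over other rows, so adjoining numbers are not shown to be particular to the genes that came on.

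Levels within a run differed beyond their SDs in some runs and not in others. In the run of 3 consecutive numbers, gene_623 and gene_624 were listed at 0 in all WT libraries and stood at 5.47 ± 0.613 and 6.18 ± 1.11 FPKM without Set1 (SD, n = 3). Their neighbour gene_625 stood at 2.00 ± 0.370 FPKM. In the Swd3 knockout the 3 genes had 5.26 ± 0.817, 6.25 ± 0.538 and 2.36 ± 0.880 FPKM. Gene_8432 and gene_8433 reached 6.93 ± 0.978 and 9.41 ± 0.391 FPKM in the Set1 knockout. The low runs included gene_238 and gene_240, at 1.48 ± 0.383 and 1.46 ± 0.243 FPKM, and gene_2472 and gene_2473, at 2.70 ± 0.488 and 1.81 ± 0.357 FPKM. Gene_883 and gene_884 stood at 2.17 ± 0.547 and 2.48 ± 0.435 FPKM in the Set1 knockout and at 2.83 ± 0.627 and 1.79 ± 0.457 FPKM in the Swd3 knockout.

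Joined at a distance of at most 15 in number, a limit chosen after the values were seen, 35 of the 58 genes fall into 12 stretches, and 6 stretches hold at least 3 of them. A limit of 25 gave the same 12 stretches and 35 genes, and a limit of 10 gave 11 and 32. The 12 stretches hold 55 further gene_ rows that did not meet the rule, of which 8 were too low to be tested. In the Set1 knockout 33 of these rose, 7 fell and 7 did not pass, and in the Swd3 knockout 34 rose, 8 fell and 5 did not pass (limma, adjusted p under 0.05, with shared WT libraries). Over all tested gene_ rows that did not meet the rule, the shares were 35.9% up and 45.6% down in the Set1 knockout and 36.2% up and 44.8% down in the Swd3 knockout. Of the tested rows, 13 had a WT mean under 1 FPKM and could not pass the filter on low values without their knockout libraries. Their rise was therefore largely set by being tested, and all 13 rose in each knockout. Among the 34 at 1 FPKM or more in WT, the Set1 knockout had 20 up and 7 down, and the Swd3 knockout 21 up and 8 down. These counts describe stretches chosen with the values known.

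The stretch from gene_9453 to gene_9467 holds 5 of the silent genes and 9 other rows, and all 9 rose in each knockout. Of these other rows, gene_9454, gene_9461 and gene_9462 had WT means of 0.0681, 0.319 and 0.847 FPKM. They could not pass the filter without their knockout libraries, so their rise was largely set by being tested. The silent genes stood in the Set1 knockout at 5.53 ± 0.255 (gene_9453), 10.95 ± 0.771 (gene_9455), 1.72 ± 0.668 (gene_9456), 6.38 ± 0.306 (gene_9466) and 5.97 ± 0.762 FPKM (gene_9467). Between them lie genes that were measurable in WT. Gene_9463 went from 7.997 ± 0.541 FPKM in WT to 76.1 ± 1.17 FPKM without Set1 and 84.5 ± 3.89 FPKM without Swd3, and gene_9464 from 2.13 ± 0.436 to 41.0 ± 2.68 and 75.6 ± 7.21 FPKM (SD, n = 3). The highest levels of this stretch thus belonged to genes that were not silent in WT.

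The stretch from gene_3195 to gene_3206 is listed without a gap and was low in WT throughout. Its 7 other rows had WT means of at most 0.474 FPKM, and 5 of them passed the filter, which at that WT level needed their knockout libraries. Gene_3195, gene_3196 and gene_3200 stood at 3.52 ± 0.544, 4.89 ± 0.577 and 2.50 ± 0.484 FPKM in the Set1 knockout, and gene_3205 and gene_3206 at 13.6 ± 1.08 and 20.6 ± 2.52 FPKM. Gene_3198 reached 13.9 ± 1.67 FPKM without Set1 and 15.5 ± 0.20 FPKM without Swd3, and missed the rule because of 0.183 FPKM in WT library 3. Not every row of the stretch came on. Gene_3202 stood at 0.0962 ± 0.167 FPKM in WT and at 0.175 ± 0.245 and 0.105 ± 0.178 FPKM in the Set1 and Swd3 knockouts.

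In other stretches silent genes lie among genes that rose and genes that fell. From gene_4790 to gene_4807, 8 of the 13 other rows tested rose in the Set1 knockout, 1 fell and 4 did not pass, and in the Swd3 knockout 9 rose, 2 fell and 2 did not pass. Among those that rose, gene_4796 and gene_4801 had WT means of 0.127 and 0.622 FPKM. They could pass the filter only through the knockout libraries. There the 4 silent genes gene_4790, gene_4792, gene_4795 and gene_4807 reached 3.56 ± 0.352, 11.8 ± 0.520, 6.46 ± 0.387 and 3.76 ± 0.331 FPKM in the Set1 knockout. Among the rows that rose in each knockout, gene_4794 went from 10.02 ± 1.48 FPKM in WT to 54.9 ± 2.74 and 59.4 ± 4.72 FPKM without Set1 and Swd3. Gene_4800 went from 4.58 ± 0.312 to 36.8 ± 1.60 and 33.1 ± 1.05 FPKM. Next to gene_4792, gene_4791 stood at 56.3 ± 4.39 FPKM in WT and 58.2 ± 1.24 FPKM in the Set1 knockout, which did not pass (limma adjusted p = 0.448), and at 65.6 ± 1.61 FPKM in the Swd3 knockout, which did (limma adjusted p = 0.00407). Gene_4797, an abundant gene at 275 ± 17.0 FPKM in WT, fell to 240 ± 6.61 and 206 ± 16.1 FPKM in the Set1 and Swd3 knockouts (limma adjusted p = 0.010 and 2.94e-05). Gene_4799, one of the falls counted without Swd3 (limma adjusted p = 0.0404), was listed at 0 in Set1 knockout library 1 and Swd3 knockout libraries 1 and 2. It stood at 27.6 to 31.996 FPKM in the other knockout libraries and at 25.4 to 29.3 FPKM in WT, so that call rests on values listed at 0.

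In the stretch from gene_7668 to gene_7679, 4 of the 5 other rows tested rose and 1 fell, in each knockout. Among those that rose, gene_7669 and gene_7673 had WT means of 0.0394 and 0.464 FPKM. They could pass the filter only through the knockout libraries. The silent genes gene_7668, gene_7672 and gene_7679 reached 9.25 ± 0.612, 2.73 ± 0.489 and 1.95 ± 0.175 FPKM in the Set1 knockout. Gene_7673, next to gene_7672, went from 0.464 ± 0.283 FPKM in WT to 53.1 ± 2.14 and 45.9 ± 2.45 FPKM in the Set1 and Swd3 knockouts. Gene_7676 fell from 270 ± 13.2 FPKM to 150 ± 7.79 and 161 ± 10.1 FPKM (limma adjusted p = 1.74e-08 and 6.46e-08). From gene_6086 to gene_6090, the silent gene_6086, gene_6089 and gene_6090 stood at 3.58 ± 0.402, 4.85 ± 0.427 and 2.50 ± 0.546 FPKM in the Set1 knockout, with gene_6087 between them at 0.879 ± 0.278 FPKM.

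**Figure D4:**
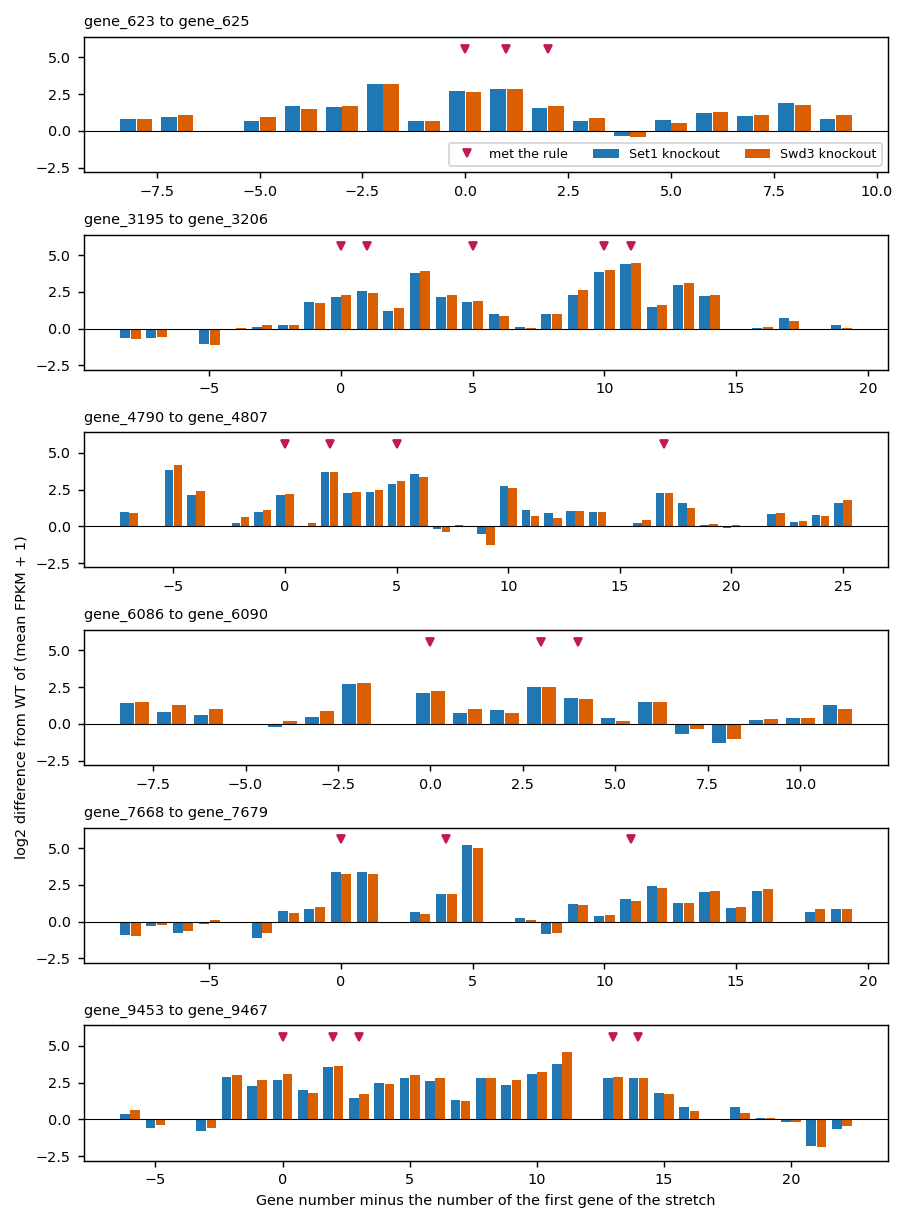
Log2 difference from WT of the mean FPKM + 1 (y axis) in the Set1 knockout (blue) and Swd3 knockout (orange), for the 6 stretches with at least 3 silent genes and 8 gene numbers to each side, by gene number counted from the first silent gene (x axis). Triangles mark the genes that met the rule, and a number with no row in the table leaves a gap.

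Genes next to the silent genes by number rose more often than gene_ rows at large. At a distance of 1, the 58 gene_ members have 85 listed neighbours that are not members, and 68 of these were tested. Of the 68, 38 had a WT mean of at least 1 FPKM. The others could not pass the filter without their knockout libraries, which favours a rise, so the 38 are also counted alone below. In the Set1 knockout 57 of the 68 rose (83.8%) and 5 fell (7.35%), against 35.9% and 45.6% of all tested gene_ rows that did not meet the rule. In the Swd3 knockout 60 rose (88.2%) and 4 fell (5.88%), against 36.2% and 44.8%. The neighbours' median log2 difference was 1.16 without Set1 and 1.23 without Swd3, against -0.11 and -0.10.

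Wider windows held smaller shares. Within a distance of 3, 69.0% of 203 tested rows rose without Set1 and 72.9% without Swd3, and within a distance of 5, 64.4% and 67.4% of 331. The WT level changed along with distance: the median was 0.464, 3.78 and 6.203 FPKM within 1, 3 and 5 numbers, against 17.8 FPKM over all gene_ rows that did not meet the rule. At a distance of 1, 17 of the 85 listed rows were silent in WT, against 1.63%. Low genes pass the filter only through the group where they are high, so the neighbours with a WT mean of at least 1 FPKM were also counted. Of these 38 genes at a distance of 1, 71.1% rose without Set1 and 78.9% without Swd3, against 31.9% and 32.3% of other gene_ rows with such a mean. Within 3 numbers the shares were 59.2% and 63.8% of 152 genes, and within 5 numbers 55.2% and 58.3% of 259. Their WT medians still rose with distance, from 6.86 to 9.12 and 10.7 FPKM, and the part of WT level in these shares was not tested.

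The 23 gene_ members outside the 12 stretches had neighbours with a higher WT median, 1.58 FPKM. Of the 35 tested, 74.3% rose without Set1 and 28 of the 35 without Swd3. Over all tested gene_ rows that did not meet the rule, the shares were 35.9% and 36.2%. Tested neighbours with a WT mean under 1 FPKM could not pass the filter without their knockout libraries, which favours a rise. Of the 24 with a WT mean of at least 1 FPKM, 62.5% rose without Set1 and 70.8% without Swd3. The shares were 31.9% and 32.3% of all gene_ rows with such a mean that did not meet the rule. These counts are set beside the background as a description. Whether neighbours by number are neighbours on the genome was not tested.

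**Figure D5:**
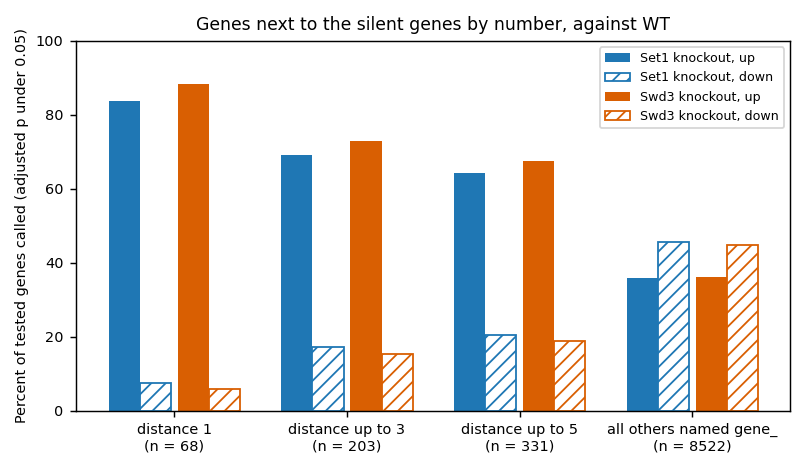
Percent of tested genes that rose (filled bars) or fell (hatched bars) against WT in the Set1 knockout (blue) and Swd3 knockout (orange) at an adjusted p under 0.05, for genes within 1, 3 or 5 gene numbers of the silent genes and for all other gene_ rows. The share that rose is highest at a distance of 1, at 83.8% and 88.2%. Many of these genes are low in WT and could not pass the filter without their knockout libraries, which favours a rise. For the 38 with a WT mean of at least 1 FPKM (not drawn) the shares are 71.1% and 78.9%. Over other gene_ rows with such a mean they are 31.9% and 32.3%.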

How the data were processed

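In all, 9 RNA-seq libraries of mycelium (WT, Set1 knockout and Swd3 knockout, 3 each) were grouped by their titles. The authors deposited a table of FPKM values with a column per library, and the submitters' processing notes name FastQC, HISAT2 and StringTie. The sources used here give no versions, settings, genome build, annotation or strandedness. The ratios between WT libraries 1 and 2 of the 70 genes under 0.15 FPKM in them spread over 31 bins of 0.1 log2 units with at most 8.57% in a bin. No steps of whole reads were seen, so no counting interval or detection floor was computed.

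Rows with at least 1 FPKM in at least 3 of 9 libraries (9153) were tested on log2(FPKM + 1) with limma 3.58.1 in R 4.3.3, with a mean per group over all 9 libraries, empirical Bayes with an intensity trend, two-sided p-values and Benjamini-Hochberg adjustment over all rows tested, with a threshold of 0.05. The fit was tested on simulated data. Errors are SD over 3 libraries or SE of the fit.

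The members, limits and lists were chosen with earlier results of these data known. Genes were named by a rule: the 8 highest means over the knockout libraries, calls between the knockouts (none were made), rows nearest each limit, and members at most 2 numbers apart. Genes named outside it were chosen after their values were seen. Alternatives covered the limits of the rule, pseudocount, filter, 3 scalings, fitting just the groups compared, the replicate block, robust moderation and leaving out each library.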

Additional observations from a re-analysis of the deposited data

How the results depend on the processing

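The number of genes that meet the rule follows its limits. It was 35 with WT listed at 0, 38 with a WT limit of 0.05 FPKM, 107 with 0.2 and 246 with 0.5. With knockout limits of 0.5, 2 and 5 FPKM it was 92, 34 and 16. Group means in place of every library gave 118. Scaling to a common total gave the same 63 and scaling by the median of ratios 66, all 63 among them, and quantile normalization kept 28 of them. Leaving out a library gave 63 to 81. The count of the 63 called between the knockouts was 0, and it was 1 with scaling to a common total, median of ratios scaling, a fit of the compared groups alone or no filter (gene_8433 each time), and 0 to 2 when a library was left out. Over all rows tested, the share called was 13.3%, 14.4%, 11.7% and 11.1% under those settings in turn. It was 8.01% to 12.9% when a library was left out. The log2 differences of the 5 genes with an unadjusted p under 0.05 kept their direction under all 16 alternatives. Adjusted p ran from 0.0422 to 0.278 for gene_8433, 0.0380 to 0.249 for gene_9453 and 0.0465 to 0.336 for gene_433, and stayed above 0.05 for gene_8276 and gene_5681. The labels name no shared batch behind the replicate numbers, and 4 of 9 same-number pairs had deviations correlated above 0.1 (r from -0.132 to 0.295). With the replicate number as a block, 0 of the 63 were called between the knockouts and 63 against WT in each knockout, and 83.8% and 88.2% of neighbours rose (Set1 and Swd3). Under quantile normalization 60 of the 63 passed the filter and all 60 rose in each knockout. The share of neighbours that rose was 69.0% and 72.9% (Set1 and Swd3) within a distance of 3, 64.4% and 67.4% within 5, and 71.1% and 78.9% among neighbours with a WT mean of at least 1 FPKM. With that WT mean it was 59.2% and 63.8% within 3, and 55.2% and 58.3% within 5. Over the other settings it ran from 78.7% to 83.8% and from 80.3% to 89.7%, and without a library from 80.9% to 83.8% and from 85.3% to 88.2%. Depth is unknown, so a gene listed at 0 cannot be told from a gene too low to be counted, which touches the WT level of all 63.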
